A study of Homo sapiens with 15 samples.

Results

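The nuclear-encoded subunits of the mitochondrial respiratory chain were followed through 15 RNA-seq libraries of H1299 cells. They were chosen by symbol: protein-coding genes named NDUFA, NDUFB, NDUFC, NDUFS or NDUFV with a number, SDHA to SDHD, UQCR, COX4 to COX8 or ATP5, present in every count table. The rule took 89 genes of 61552 gene identifiers, of which 19877 were protein-coding. By complex there were 36 genes of complex I, 4 of complex II, 9 of complex III, 19 of complex IV with NDUFA4 and NDUFA4L2 counted there, 19 of complex V, and 2 readthrough genes kept apart. A further 173 hits of the same symbols were annotated as pseudogenes and 7 had other biotypes, and none of these was a member. The symbols leave out CYC1 and NDUFAB1, which encode subunits of complexes III and I, and CYCS, which encodes cytochrome c; their values are given separately.

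H1299 is an established line from a human lung cancer that makes no working p53 of its own, and every group was the same line given a vector or a p53 construct. In the data of 2023, Ctrl received the control vector and WT overexpressed wild-type p53, with 3 libraries each. In the data of 2022, p53, LLPSEp53_1 and LLPSEp53_2 were overexpressed, with 3 libraries each and no control vector; by the title of the study, these constructs bear on the phase separation of p53, and the labels do not say how they were built, how long they were expressed or whether the cells were a clone. The label of p53 replicate 2 says it was collected apart from the rest, so p53 replicates 1 and 3 set the p53 level in all tests.

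As background, the respiratory chain passes electrons from NADH through complex I, or from succinate through complex II, to ubiquinone, complex III, cytochrome c and complex IV, and complex V uses the proton gradient to make ATP. Complexes I, III, IV and V also hold subunits encoded by mitochondrial DNA, whereas all subunits of complex II come from the nucleus. The nuclear subunit genes are expressed in nearly all cells, and the transcription factors NRF1, the ETS factor GABPA and YY1 are known to bind many of their promoters.

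Promoters from 250 bases before to 50 bases after the annotated start were matched in RefSeq (GRCh38.p14) for 70 of the 89 members. The search used the letters GCGCATGCG for the NRF1 core, CCGGAAG for the ETS core and AAGATGGCG for the YY1 core, on both strands. The NRF1 letters stood in 10 of the 70 promoters (14.3%) against 2.76% of 15843 protein-coding promoters of the same length. The ETS letters stood in 20 (28.6% against 14.2%) and the YY1 letters in 8 (11.4% against 2.74%), while TATAAA stood in 7 (10.0%) against 9.63%. Median GC content was 61% in the members' promoters and 62.7% in all protein-coding ones. In 39 members none of the NRF1, ETS and YY1 letters lay in this window, which says nothing about the factors themselves. The sites below are from some of the members named later, and those of SDHD and NDUFB4 are not printed. Each is given as 30 bases read 5′ to 3′ on the strand of the gene, with the motif or its reverse complement in capitals.
COX6A1: ggagggcacaCGCATGCGCacgaaggaaac
ATP5ME: gccgctgacgGCGCATGCGtgcgcccagct
ATP5MC2: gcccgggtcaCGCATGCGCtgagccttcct
NDUFS7: ttccggtttcCGCATGCGCtccgagccgct
NDUFS6: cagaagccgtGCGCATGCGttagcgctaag
ATP5PF with the NRF1 core: cactcaaagaGCGCATGCGtacagagcaag
ATP5PF with the ETS core: gccaggggacCCGGAAGcacttaccctcca
ATP5PF with the YY1 core: aggcgaagaaAAGATGGCGgaggctgtgcc
The COX6A1 site lay at chr12:120437884-120437913 on the plus strand, and the site of ATP5ME, a membrane subunit of complex V, at chr4:674335-674364 on the minus strand. That of the c-ring gene ATP5MC2 was at chr12:53676105-53676134 on the minus strand. The complex I genes NDUFS7 and NDUFS6 held theirs at chr19:1383823-1383852 and chr5:1801351-1801380, both on the plus strand. ATP5PF, of the peripheral stalk of complex V, was the member in which all 3 motifs were found; its window on the minus strand spans chr21:25735065-25735094 for the ETS letters, chr21:25735092-25735121 for YY1 and chr21:25735155-25735184 for NRF1, and these 3 matches do not overlap. The NRF1 letters are close to their own reverse complement, so a site can match on both strands and was then counted once.

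Libraries held between 13535397 and 19228748 counts assigned to genes, so that 3 counts, taken here as the floor, amounted to 0.156 to 0.222 CPM (counts scaled to a fixed library total). Levels below are CPM scaled by TMM within each year, and levels of different years were scaled separately. KRT8, KRT18 and VIM stood between 698 and 1968 CPM in every library and CDH2 between 42.7 and 64.6, whereas the epithelial genes CDH1 and EPCAM were at or below 0.31 and 1.66 CPM. Of the lung lineage genes only NKX2-1 exceeded 1 CPM (0.92 to 6.98), and all 15 markers of other cell types were at or below 3.44 CPM, with PTPRC and INS at 0 counts. The labels do not say whether replicates came from separate cultures; if they did not, every p-value below reflects only differences among libraries, which may be technical. In bulk RNA, fewer cells expressing a gene and less RNA per cell cannot be told apart.

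Levels were first compared within each complex, per length of the coding transcripts (CPM per kb, mean of the 5 group means, p53 replicate 2 included). ATP5F1B, the catalytic beta subunit of ATP synthase (ENSG00000110955, GRCh38 chromosome 12, 56638175 to 56646068, minus strand), had the highest level per length of all members at 569 CPM per kb. The cytochrome c oxidase genes COX4I1 and COX6B1 followed at 525 and 424. Complex III was led by the hinge protein gene UQCRH at 243, complex I by the accessory subunit NDUFB9 at 187, and complex II by the membrane anchor SDHC at 166. With the length of all exons in place of the coding transcripts, NDUFS5 (complex I), SDHB (complex II), UQCRFS1 (complex III) and COX6B1 (complex IV) led instead, and ATP5F1B stayed at the top of complex V. Levels of the catalytic and core genes differed within complexes and overlapped between them. ATP5F1A, the alpha subunit, was at 232, and UQCRFS1, the Rieske iron-sulfur protein, at 147. UQCRC1 and UQCRC2, the core proteins, were at 114 and 28.9. The nuclear-encoded core subunits of complex I ran from 2.32 for NDUFV2 to 158 for NDUFS8, with NDUFV1 and NDUFS1 at 62.96 and 56.3 CPM per kb.

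**Figure D1:**
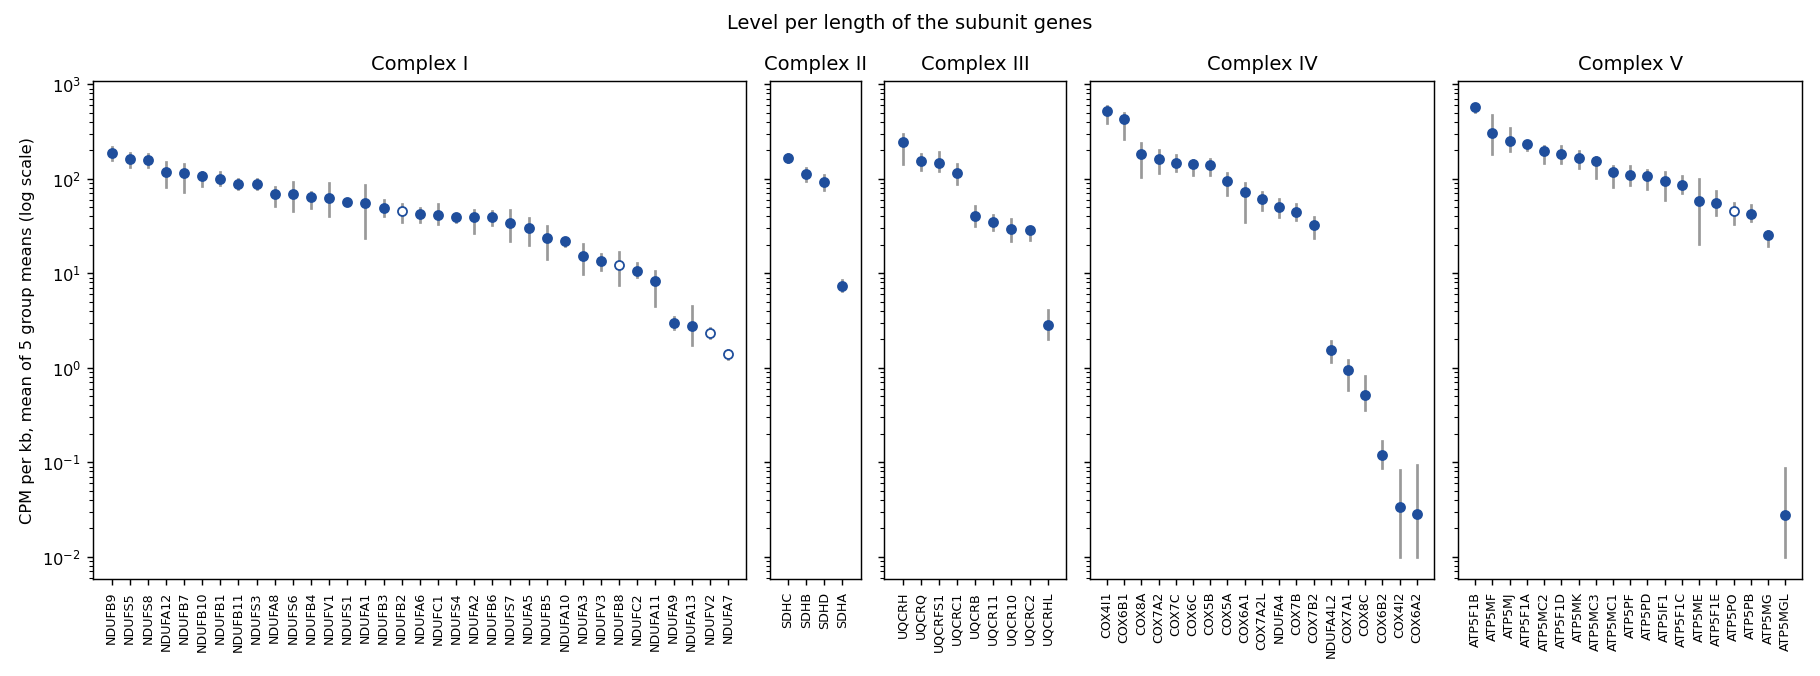
Level per length of 86 members by complex, as CPM per kb on a log axis, ranked within each complex; points are means of the 5 group means, grey bars span the lowest to the highest group mean (means of 0 are drawn at 0.01), and open points mark genes with over 50% of exonic bases shared with another gene. Levels fall from 569 for ATP5F1B to 0.03 for COX4I2, COX6A2 and ATP5MGL.

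Several of the lowest levels belong to genes that share exons or sequence with others, and these levels are uncertain. In complex I the lowest were NDUFA7 at 1.38, NDUFV2 at 2.32 and NDUFA13 at 2.75 CPM per kb. More than 50% of the exonic bases of NDUFA7 (78.7%) and NDUFV2 (82.9%) overlap another gene, as do those of ATP5PO (70.3%), NDUFB8 (65.4%) and NDUFB2 (56.9%). The median of these 5 genes was 12.1 CPM per kb against 63.3 for the other 82 members placed in a complex. NDUFV2, a core subunit of complex I, held 527 counts in all 15 libraries together, while its processed pseudogene NDUFV2P1 held 729. SDHA, the flavoprotein of succinate dehydrogenase and the lowest of complex II at 7.28 CPM per kb, held 3837 counts, and its pseudogenes SDHAP1, SDHAP4 and SDHAP3 held 5462, 3479 and 2821. How reads with several matches were counted is unknown here, and so is the split between SDHA and its copies. UQCRFS1 is less exposed, with 123758 counts against 4262 for UQCRFS1P1.

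Isoform pairs of complex IV were read as the share of their summed CPM per kb, which does not depend on the scaling between years. COX4I1 took at least 99.97% of its pair with COX4I2, the isoform of lung and other oxygen-sensing tissue, which held 6 counts in all libraries. COX6A2, the heart and muscle isoform, held 3 counts, and COX6A1 took at least 99.7% of that pair. COX6B2, the testis isoform, held 49 counts, and COX8C 67. COX7A1, the other muscle isoform, made up 0.122 to 0.775% of the COX7A genes, with COX7A2 at 68.2 to 75.1% and COX7A2L, which takes part in supercomplex assembly, at 24.6 to 31.3%. COX4I2, COX6A2, COX6B2 and COX8C did not pass the filter on low counts, nor did ATP5MGL, a copy of the membrane subunit gene ATP5MG with 5 counts, and the readthrough genes ATP5MF-PTCD1 and NDUFC2-KCTD14. The other 82 members passed it and were tested.

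COX7B2 was well above the floor in all 15 libraries. It encodes a paralogue of COX7B that is best known from testis, and its levels were 16.7, 18.9 and 16.7 CPM in Ctrl and 16.2, 18.1 and 21.7 in WT, 18.7, 8.14 and 14.5 in p53, 15.3, 20.8 and 31.6 in LLPSEp53_1 and 25.5, 19.6 and 21.9 in LLPSEp53_2. The groups overlapped in each year, except that all LLPSEp53_2 libraries were above p53, and p53 replicate 2 was the lowest. Over all libraries together COX7B2 held 4638 counts and COX7B 26855. The lengths used were 579.5 bases for COX7B2 and 2471 for COX7B, and shares per length depend on them. Per length, COX7B2 made up 45.4% ± 1.63 of the COX7B pair in Ctrl and 41.6% ± 1.62 in WT (SD, n = 3 each). In p53 the share was 36.96% ± 14.01 over all 3 libraries, replicate 2 included. It was 40.7% ± 6.87 in LLPSEp53_1 and 44.99% ± 1.91 in LLPSEp53_2. This range lies within the spread of the 3 p53 libraries. NDUFA4L2, the hypoxia-responsive relative of the complex IV subunit NDUFA4, had 0.804 to 3.18 CPM and 1.31 to 5.97% of that pair. The c-ring genes ATP5MC1, ATP5MC2 and ATP5MC3 encode the same mature protein. ATP5MC2 gave the largest part in every group, from 39.5% ± 3.14 in WT to 44.7% ± 4.301 in p53 with replicate 2 included.

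The summed level of all members varied widely among libraries of a group. Ctrl libraries held 8663, 8017 and 8695 CPM and WT libraries 7958, 8111 and 9577, so the groups overlapped and WT replicate 3 was the highest. In 2022, p53 replicates 1 and 3 held 7541 and 7032 CPM and p53 replicate 2 held 5505. LLPSEp53_1 held 7542, 9168 and 10810.2. LLPSEp53_2 held 9322, 8374 and 7492. Replicate 1 of LLPSEp53_1 and replicate 3 of LLPSEp53_2 thus lay next to p53 replicate 1, and LLPSEp53_1 replicate 3 stood highest. The mean of LLPSEp53_1 was 1.26 times that of p53 replicates 1 and 3, or 1.15 times without its replicate 3, a setting added after seeing the data. For LLPSEp53_2 the ratio to p53 was 1.15, and for WT to Ctrl 1.01.

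**Figure D2:**
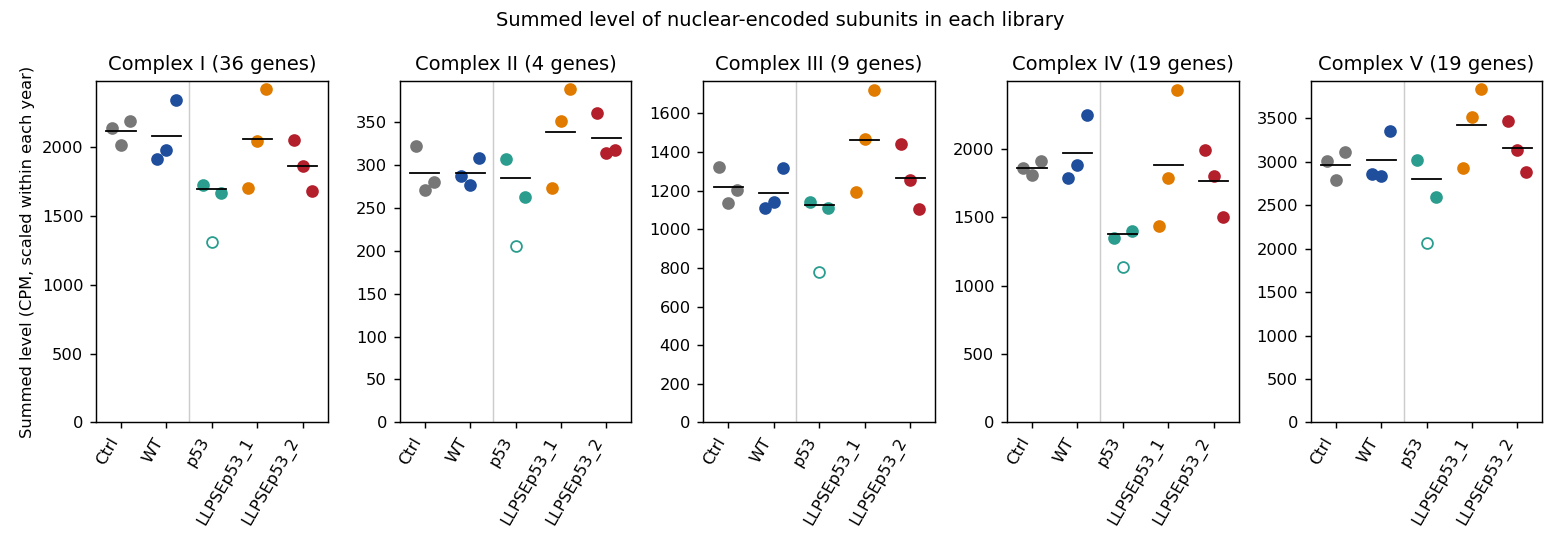
Summed CPM of the subunit genes of complexes I to V (y axis, from 0) in each library; filled points are libraries, the open point is p53 replicate 2, and lines are group means without it. In all 5 complexes LLPSEp53_1 replicate 3 is the highest library of 2022, and p53 replicate 2 the lowest.

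By complex, the mean of LLPSEp53_1 over that of p53 replicates 1 and 3 was 1.22 for complex I, 1.19 for II, 1.299 for III, 1.37 for IV and 1.22 for V. For LLPSEp53_2 over p53 the same ratios were 1.102, 1.16, 1.13, 1.28 and 1.13; both comparisons share the p53 libraries. Complex IV had the largest ratio in each. Without LLPSEp53_1 replicate 3 the complex IV ratio of LLPSEp53_1 was 1.17, below the 1.18 of complex III. The share of complex IV in the summed level was 19.03%, 19.5% and 22.5% in the LLPSEp53_1 libraries and 17.9% and 19.9% in p53 replicates 1 and 3. Complex I took 25.03% ± 0.257 of the summed level in Ctrl and 24.3% ± 0.249 in WT (SD, n = 3 each), and these libraries did not overlap. Its share was also lower in both constructs (22.4 to 22.7% and 22.1 to 22.5%) than in p53 replicates 1 and 3 (22.9% and 23.7%). The complex IV share of LLPSEp53_2 (20.1 to 21.5%) lay above these p53 libraries. The complex III share of LLPSEp53_1 (15.82 to 15.99%) lay above p53 (15.10% and 15.78%) and LLPSEp53_2 (14.7 to 15.4%).

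In the libraries that stood apart, the members and the ribosomal protein genes deviated in the same direction. In LLPSEp53_1 replicate 3 the median member stood 0.47 (log2) above its mean of the year, the median cytosolic ribosomal protein gene 0.47 and the median mitochondrial ribosomal protein gene 0.37. In p53 replicate 2 the values were -0.58, -0.48 and -0.52, and in WT replicate 3 they were 0.20, 0.22 and 0.14. LLPSEp53_1 replicate 3 was the highest library of 2022 in 62 of 82 members, while 16.9% of all genes tested were highest there. The same library was the highest for 65 of 83 cytosolic and 44 of 76 mitochondrial ribosomal protein genes. In 2023, 50 of 82 members were highest in WT replicate 3, against 15.2% of all genes. The part of these library shifts in the results below was not tested.

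**Figure D3:**
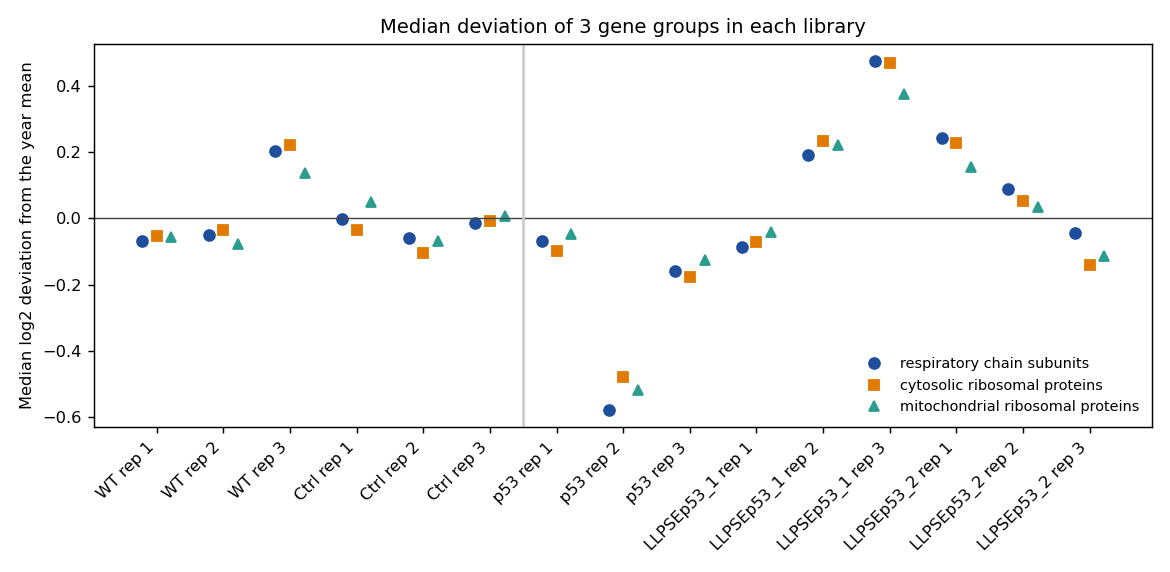
Median log2 deviation from the mean of the year (y axis) of the respiratory chain subunits, cytosolic ribosomal protein genes and mitochondrial ribosomal protein genes in each library (x axis). The 3 gene groups deviate in the same direction in the libraries farthest from 0, from -0.58 in p53 replicate 2 to 0.47 in LLPSEp53_1 replicate 3 for the subunits.

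WT was set against Ctrl to find genes regulated by p53. No member passed an adjusted p of 0.05 in edgeR's quasi-likelihood test, nor in DESeq2, while 4.12% of the 16156 genes tested did with edgeR (3.24% higher and 0.873% lower). At an unadjusted p of 0.05, edgeR gave 9 members above and 4 below Ctrl of the 82 that passed the count filter, against 8.94% and 9.22% of all genes. Log2 differences had a median of 0.06 (all genes -0.01) and lay between -0.52 and 0.58. Libraries of the groups did not overlap in 9 members with WT higher and 1 with WT lower, against 12% and 10.5% of all genes. These shares were near or below the background. Without WT replicate 3 the median turned to -0.05, with 1 member above and 6 below at an unadjusted p of 0.05; without WT replicate 2 there were 16 above and 3 below.

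NDUFA5, an accessory subunit of the hydrophilic arm of complex I (ENSG00000128609, GRCh38 chromosome 7, 123536997 to 123558255, minus strand), had the smallest adjusted p of the members. Its levels were 30.9, 38.8 and 32.5 CPM in Ctrl and 43.9, 41.7 and 49.1 in WT (log2 difference 0.40, standard error 0.12, adjusted p = 0.0648). All WT libraries were above all Ctrl libraries. With edgeR, adjusted p for NDUFA5 ran from 0.013 without Ctrl replicate 2 to 0.29 without WT replicate 3 when a library was left out, and with offsets for GC content the log2 difference was 0.22. NDUFA5 was called with length offsets (4.53% of all genes called). A block for the replicate number also called it, alone (10.2%) and with length offsets (12.1%). The accessory membrane-arm gene NDUFB5 stood at 21.2, 16.2 and 11.4 CPM in Ctrl and 21.1, 21.6 and 30.3 in WT (log2 difference 0.58, standard error 0.18, adjusted p = 0.0846), with Ctrl replicate 1 inside the WT range. For NDUFB5, edgeR's adjusted p ran from 0.0014 without that library to 0.41 without Ctrl replicate 3. All 7 nuclear-encoded core subunits of complex I lay below 0, between -0.34 and -0.12, whereas the 29 accessory subunits had a median of 0.04. None of the 7 was called. NDUFS7, which binds the last iron-sulfur cluster before ubiquinone, had 41.6, 39.4 and 63.9 CPM in Ctrl and 38.5, 40.4 and 35.8 in WT (log2 difference -0.34, standard error 0.15, adjusted p = 0.223). Exons of NDUFS7 overlap other genes over 37.9% of their length. NDUFV1, the subunit that binds NADH and FMN, had 149, 118 and 149.6 and 103, 112 and 131 CPM (log2 difference -0.27, standard error 0.12, adjusted p = 0.239). Both pairs of groups overlapped, and Ctrl replicate 3 was the highest library for each. NDUFS1 was at -0.12, and the accessory subunit NDUFB8 at 0.31 (adjusted p = 0.384).

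No gene of complex II or III had an adjusted p below 0.2. The complex II genes SDHA, SDHB, SDHC and SDHD had log2 differences of -0.04, -0.07, 0.00 and 0.13, each with libraries that overlapped and adjusted p of at least 0.564. In complex III the smallest adjusted p was 0.245, for the small subunit UQCRB at 0.23, with UQCRC1 at -0.23, UQCRC2 at 0.03 and UQCRFS1 at -0.09. Complex IV and complex V had medians of 0.10 and 0.11. COX7B stood at 79.6, 98.9 and 90.6 CPM in Ctrl and 104, 102 and 130.4 in WT (log2 difference 0.32, standard error 0.12, adjusted p = 0.149), and NDUFA4 at 73.6, 89.7 and 86.7 and 93.3, 95.7 and 117 (log2 difference 0.29, standard error 0.12, adjusted p = 0.181). For both, the lowest WT library was above the highest Ctrl library. COX4I1, COX5A, COX5B, COX6A1, COX6B1, COX6C, COX7A2 and COX8A lay between -0.13 and 0.23, none called.

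In complex V, differences ranged from -0.43 to 0.37. ATP5F1D, the delta subunit of the central stalk, had 153, 113 and 148 CPM in Ctrl and 84.7, 104 and 119 in WT (log2 difference -0.43, standard error 0.13, adjusted p = 0.07596); WT replicate 3 lay above Ctrl replicate 2. ATP5F1D passed the threshold in edgeR without Ctrl replicate 2 (adjusted p = 0.0096), with no filter on low counts (adjusted p = 0.012) and with length offsets (adjusted p = 0.033). A block for the replicate number also called it, alone (10.2% of all genes called) and with length offsets (12.1%). It passed in none of the other 5 fits that left out a library, and GC offsets gave an adjusted p of 0.409. ATP5PF, of the peripheral stalk, had 44.7, 60.95 and 57.6 and 65.4, 65.1 and 80.7 CPM (log2 difference 0.37, standard error 0.12, adjusted p = 0.106), and its groups did not overlap. Exons of ATP5PF overlap GABPA, on the other strand, over 30.4% of their length, and GABPA itself was at 0.28. Reads of both may be counted together, which was not tested. For ATP5MF, named next, 32.1% of exonic bases lie in other genes. All 5 tested membrane genes (ATP5ME, ATP5MF, ATP5MG, ATP5MJ and ATP5MK) were above 0, with a median of 0.20 and none called. The catalytic ATP5F1A and ATP5F1B were at -0.12 and -0.01, the stalk gene ATP5PO at 0.11, the c-ring genes ATP5MC1, ATP5MC2 and ATP5MC3 at -0.07, -0.06 and 0.05, and the inhibitor ATP5IF1 at 0.04.

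**Figure D4:**
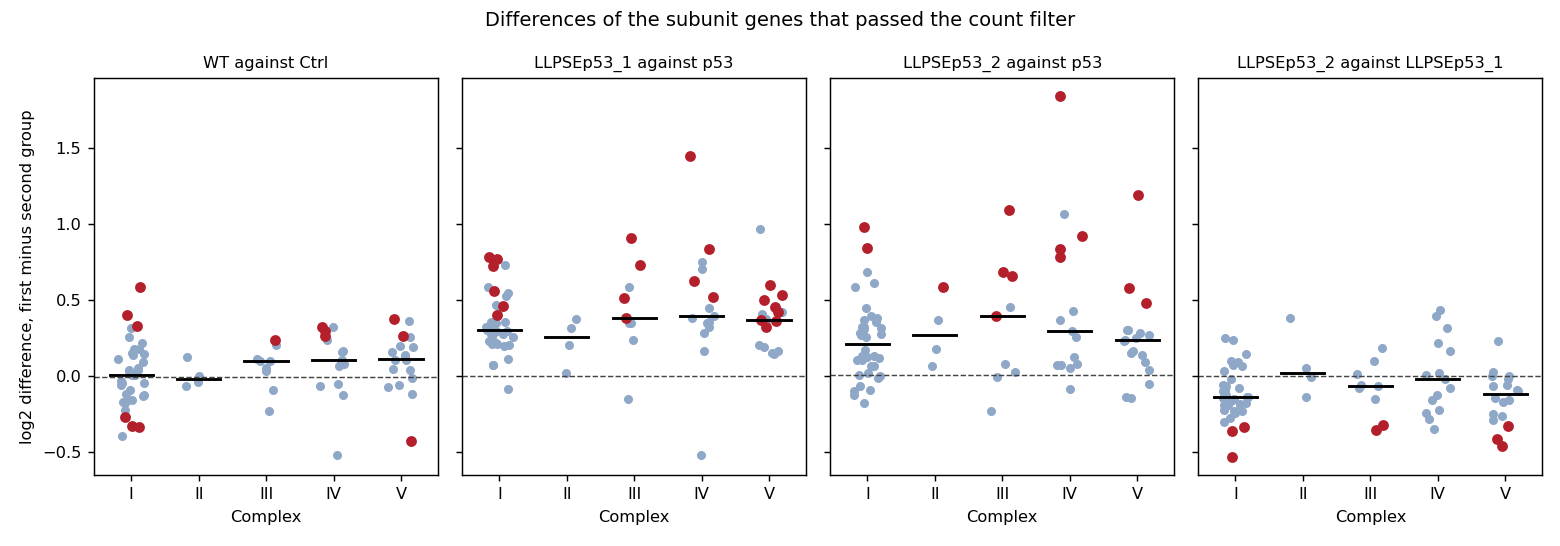
Log2 differences (y axis) of the 82 members that passed the count filter, by complex (x axis) and comparison; each point is a gene, red points have an unadjusted p below 0.05, black lines are medians of a complex and the dashed line is the median of all genes tested. No point passed an adjusted p of 0.05; medians by complex lie between 0.26 and 0.40 for LLPSEp53_1 against p53 and between -0.02 and 0.11 for WT against Ctrl.

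LLPSEp53_1 was compared with p53 to ask how the construct differs from p53 itself. No member was called by edgeR or by DESeq2, against 0.888% of 17459 genes tested by edgeR (0.0515% higher and 0.836% lower). At an unadjusted p of 0.05, 22 members were above p53 and 0 below, against 5.72% and 7.34% of all genes. Of the 82 members tested, 79 had a log2 difference above 0, with a median of 0.35 (all genes 0.00); the cytosolic and mitochondrial ribosomal protein genes had medians of 0.38 and 0.28. In 20 members all LLPSEp53_1 libraries were above both p53 libraries and in 0 they were all below, against 12.2% and 14.7% of all genes. Both counts above p53 are a larger share than over all genes in this fit, and so is that of the cytosolic ribosomal protein genes, of which 35 of 83 were above p53 at an unadjusted p of 0.05. With offsets for gene length the median was 0.11 and 63 members were above 0. Without LLPSEp53_1 replicate 3 it was 0.19, and without LLPSEp53_1 replicate 1 it was 0.46 with 5 members called (ATP5MC3, COX6A1, NDUFA1, NDUFS7 and UQCRH) and 3.15% of all genes called. The 22 members above p53 at an unadjusted p of 0.05 were 6 without LLPSEp53_1 replicate 3, 14 without LLPSEp53_2 replicate 2 and 55 without LLPSEp53_1 replicate 1. With length offsets 11 were above and 2 below. Leaving out p53 replicate 1 or 3 leaves a single p53 library to set the p53 level, and the median was then 0.40 or 0.28.

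UQCRH, the acidic hinge protein of complex III (ENSG00000173660, GRCh38 chromosome 1, 46303631 to 46316776, plus strand), had the smallest adjusted p, at 81.8 and 102 CPM in p53 replicates 1 and 3 and 112, 147 and 197 in LLPSEp53_1 (log2 difference 0.73, standard error 0.24, adjusted p = 0.237). The core protein gene UQCRC2 had 61.9 and 58.9 CPM in p53 replicates 1 and 3 and 74.9, 82.6 and 78.8 in LLPSEp53_1 (log2 difference 0.38, standard error 0.13, adjusted p = 0.255). In both genes the groups did not overlap, and for UQCRC2 replicate 2, not replicate 3, was the highest LLPSEp53_1 library. UQCRFS1 and UQCRC1 were at 0.35 and 0.23. Complex IV ranged from -0.52 for NDUFA4L2 to 1.44 for COX6A1. The COX6A1 difference rested on LLPSEp53_1 replicate 3, as its per-library levels below show. COX7B, which did not overlap, was at 74.1 and 114 CPM in p53 replicates 1 and 3 and 117, 146 and 143 in LLPSEp53_1 (log2 difference 0.52, standard error 0.18, adjusted p = 0.263). COX4I1, COX5B, COX6C and COX7A2 lay between 0.35 and 0.40, and NDUFA4 was at 0.28.

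In complex V all 18 tested genes were above 0. The c-ring gene ATP5MC3 had 93.6 and 97.6 CPM in p53 replicates 1 and 3 and 114, 132 and 188 in LLPSEp53_1 (log2 difference 0.60, standard error 0.20, adjusted p = 0.237), and the other c-ring genes, ATP5MC1 and ATP5MC2, were at 0.37 and 0.45. ATP5IF1, which blocks ATP hydrolysis by the enzyme, had 41.1 and 42.1 CPM in p53 replicates 1 and 3 and 49.5, 54.6 and 72.1 (log2 difference 0.50, standard error 0.19, adjusted p = 0.2898). Neither gene's groups overlapped. The catalytic and stalk genes had smaller differences, with ATP5F1A at 0.17, ATP5F1B at 0.21 and ATP5PO at 0.15. In complex I, 35 of 36 genes were above 0; the exception was the core subunit NDUFS1 at -0.09, while NDUFV1 was at 0.46 and NDUFB8 at 0.55. The complex II genes SDHA, SDHB, SDHC and SDHD were at 0.20, 0.31, 0.02 and 0.37.

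LLPSEp53_2 was compared with the same p53 libraries. Again no member was called by edgeR or DESeq2, against 1.93% of all genes by edgeR (0.103% higher and 1.83% lower). At an unadjusted p of 0.05, 14 members were above p53 and 0 below, against 4.89% and 7.94% of all genes. A log2 difference above 0 was found in 69 of 82 members, with a median of 0.25 (all genes 0.01); cytosolic and mitochondrial ribosomal protein genes had medians of 0.17 and 0.10. All LLPSEp53_2 libraries were above both p53 libraries in 32 members and below them in 1, against 15.6% and 17.5% of all genes. Offsets for gene length brought the median to 0.10, with 56 members above 0. It was 0.13 with 58 above 0 without LLPSEp53_2 replicate 1. With a single p53 library left, the median was 0.26 with 72 above 0 without p53 replicate 1, and 0.17 with 56 above 0 without p53 replicate 3. Among fits that left out a construct library, the 14 members above p53 at an unadjusted p of 0.05 were 7 without LLPSEp53_2 replicate 1. They were 9 without LLPSEp53_2 replicate 2 and 23 without LLPSEp53_1 replicate 3. Such counts are not given for fits with a single p53 library.

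COX6A1, the subunit VIa isoform of most tissues (ENSG00000111775, GRCh38 chromosome 12, 120438090 to 120440742, plus strand), had the largest difference. Its levels were 10.7 and 15.8 CPM in p53 replicates 1 and 3, 33.4 in p53 replicate 2, 63.4, 47.3 and 31.8 in LLPSEp53_2 and 13.01, 18.9 and 76.04 in LLPSEp53_1 (log2 difference 1.84, standard error 0.60, adjusted p = 0.178 for LLPSEp53_2 against p53). All LLPSEp53_2 libraries were above p53 replicates 1 and 3, but the lowest was below p53 replicate 2, and LLPSEp53_1 split, with replicates 1 and 2 near p53 and replicate 3 the highest of all. Exons of COX6A1 overlap another gene over 30.6% of their length, and those of ATP5ME, COX8A and NDUFA1, described next, over 49.9%, 34.5% and 44.5%. The same split was seen in ATP5ME, a membrane subunit of ATP synthase, at 5.04 and 9.53 CPM in p53 replicates 1 and 3, 18.8, 17.4 and 13.8 in LLPSEp53_2 and 6.14, 8.49 and 27.8 in LLPSEp53_1 (log2 difference 1.19, standard error 0.51, adjusted p = 0.346). COX8A, the smallest subunit of complex IV, had 51.3 and 49.5 CPM in p53 replicates 1 and 3, 118, 96.6 and 70.04 in LLPSEp53_2 and 45.97, 59.7 and 139 in LLPSEp53_1 (log2 difference 0.92, standard error 0.37, adjusted p = 0.315). In these 3 genes LLPSEp53_1 replicate 3 lay above the highest LLPSEp53_2 library.

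All 9 libraries of 2022 share 1 estimate of the spread, so LLPSEp53_1 libraries enter the test of LLPSEp53_2 against p53. Without LLPSEp53_1 replicate 3 there were 11 members called higher in LLPSEp53_2 than in p53 (5.17% of all genes were called), with only the groups compared in the fit there were 13 (6.14%), and with no filter on low counts 12 (2.21%). The 11 genes of the first setting were also called under the other 2: NDUFA1 and NDUFA11 of complex I, UQCR10, UQCRH and UQCRHL of complex III, COX5A, COX6A1, COX6B1 and COX8A of complex IV, and ATP5MC3 and ATP5ME of complex V. They are named here because of these values. Their median length was 750 bases against 932 for the other 71 members tested. COX5A, a subunit that is added early in the assembly of complex IV, had 50.1 and 59.9 CPM in p53 replicates 1 and 3 and 106, 93.9 and 83.98 in LLPSEp53_2 (log2 difference 0.78, standard error 0.27, adjusted p = 0.218). COX6B1, which sits on the intermembrane side, had 115 and 210.2 CPM in p53 replicates 1 and 3 and 326, 312 and 233 (log2 difference 0.84, standard error 0.33, adjusted p = 0.292). NDUFA1, an accessory subunit needed for complex I assembly, had 16.6 and 22.7 CPM in p53 replicates 1 and 3 and 38.5, 35.2 and 31.7 (log2 difference 0.84, standard error 0.28, adjusted p = 0.187). In each of the 3 the LLPSEp53_2 libraries were above p53 replicates 1 and 3.

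**Figure D5:**
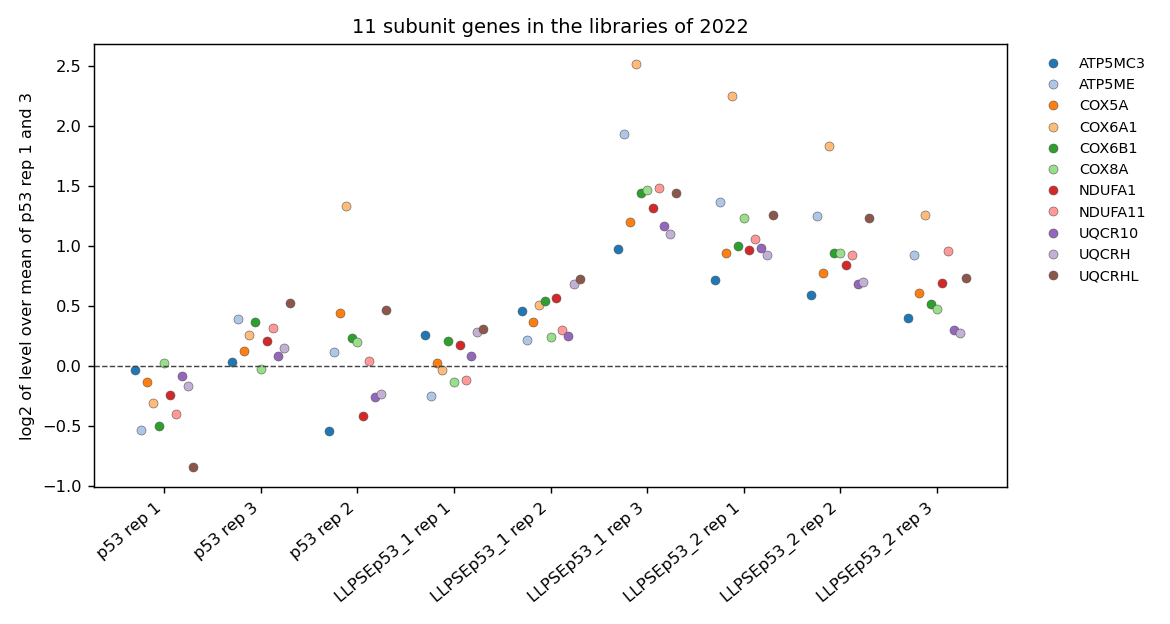
Level of 11 subunit genes in each library of 2022 (x axis) as log2 of the level over the mean of p53 replicates 1 and 3 (y axis); each color is a gene. All 11 are above the dashed line at 0 in the LLPSEp53_2 libraries and in LLPSEp53_1 replicate 3, whereas LLPSEp53_1 replicate 1 lies around it; the genes were chosen for being called under 3 alternative fits.

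Other members differed less from p53 in LLPSEp53_2. UQCRC2 had 82.01, 80.03 and 76.1 CPM in LLPSEp53_2, all above p53 (log2 difference 0.39, standard error 0.13, adjusted p = 0.197), while UQCRC1 and UQCRFS1 were at 0.08 and 0.03. SDHA was at 0.58 (adjusted p = 0.317), but its copies hold more counts than the gene itself; SDHB, SDHC and SDHD were at 0.18, 0.07 and 0.37. The core complex I genes NDUFS1 and NDUFV1 were at 0.01 and 0.32, and NDUFB8 at 0.31. In complex V, ATP5F1A, ATP5F1B and ATP5PO were at 0.16, 0.13 and 0.15, the c-ring genes ATP5MC1, ATP5MC2 and ATP5MC3 at 0.23, 0.48 and 0.58, and ATP5IF1 at 0.23. COX4I1, COX5B, COX6C, COX7A2, COX7A2L, COX7B, COX7B2 and NDUFA4 lay between 0.05 and 0.43. NDUFS6, an accessory subunit of the NADH-binding module, was the member whose LLPSEp53_2 libraries were all below p53, at 56.4, 56.3 and 40.5 CPM against 59.1 and 56.8 (log2 difference -0.18, adjusted p = 0.738).

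The medians of the complexes changed by different amounts with gene length and with LLPSEp53_1 replicate 3. With length offsets the medians of complexes I, II, IV and V in LLPSEp53_1 against p53 were 0.09, 0.10, 0.11 and 0.11, and that of complex III was 0.37. In LLPSEp53_2 against the same p53 libraries they were 0.09, 0.14, 0.18 and 0.07, with complex III at 0.40. The complex III medians without the offsets were 0.38 and 0.39, while those of the other complexes were lower with the offsets than without; complex III has 9 genes and none was called. Without p53 replicate 1, which leaves a single p53 library, and with no offsets, the complex III median in LLPSEp53_2 against p53 was 0.21. Without LLPSEp53_1 replicate 3, the medians of complexes I to V in LLPSEp53_1 against p53 were 0.18, 0.07, 0.24, 0.19 and 0.22. Within complex III the per-library levels of UQCR10, a small subunit near cytochrome c1, were 16.5 and 18.5 CPM in p53 replicates 1 and 3, 18.5, 20.8 and 39.3 in LLPSEp53_1 and 34.6, 28.1 and 21.5 in LLPSEp53_2. UQCRHL, an intronless copy of UQCRH, was at 2.296 and 5.94 CPM in p53 replicates 1 and 3, 5.12, 6.82 and 11.2 in LLPSEp53_1 and 9.84, 9.697 and 6.84 in LLPSEp53_2. Because of that likeness, reads of UQCRH may be counted for UQCRHL, whose CPM per kb was 0.57 to 1.98% of the pair. In complex I, NDUFA11, an accessory subunit of the membrane arm, had 4.98 and 8.17 CPM in p53 replicates 1 and 3, 6.07, 8.09 and 18.4 in LLPSEp53_1 and 13.7, 12.5 and 12.8 in LLPSEp53_2 (log2 difference 0.98, standard error 0.38, adjusted p = 0.285 for LLPSEp53_2 against p53). For UQCR10 and NDUFA11, LLPSEp53_1 replicates 1 and 2 lay below all of the LLPSEp53_2 libraries, and replicate 3 above them.

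Complex II has no mitochondrially encoded subunit. SDHB, the iron-sulfur subunit, had 160.4, 111 and 125 CPM in Ctrl and 122, 118 and 138 in WT, then 122 and 118 CPM in p53 replicates 1 and 3, 124, 159 and 164 in LLPSEp53_1 and 144, 129.7 and 133 in LLPSEp53_2. SDHC, a membrane anchor, had 72.04, 74.8 and 76.4 in Ctrl, 72.95, 71.6 and 78.6 in WT, 92.1 and 68.9 CPM in p53 replicates 1 and 3, 71.6, 84.3 and 88.5 in LLPSEp53_1 and 90.1, 83.3 and 79.4 in LLPSEp53_2. SDHB libraries of both constructs were above p53, and those of SDHC overlapped. ATP5F1B, the member with the highest level, had 1069, 946 and 1087 CPM in Ctrl and 987, 983 and 1104 in WT, 1107 and 879 CPM in p53 replicates 1 and 3, 1029, 1199.9 and 1207 in LLPSEp53_1 and 1177, 1090.4 and 1005 in LLPSEp53_2, and its groups overlapped in all 4 comparisons.

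The constructs were also compared with each other. No member was called by edgeR or DESeq2 in LLPSEp53_2 against LLPSEp53_1, against 0.372% of all genes by edgeR (0.0229% higher and 0.349% lower). At an unadjusted p of 0.05, 0 members were above and 8 below LLPSEp53_1, against 2.73% and 4.5% of all genes. Log2 differences were below 0 in 59 of 82 members, with a median of -0.10 (all genes 0.00); cytosolic and mitochondrial ribosomal protein genes were both at -0.16. All LLPSEp53_2 libraries were below all LLPSEp53_1 libraries in 5 members and above them in 0, against 7.02% and 5.97% of all genes. The median was 0.03 without LLPSEp53_1 replicate 3, with COX6A1, ATP5ME and COX8A then called higher in LLPSEp53_2 and 1.1% of all genes called, and -0.24 without LLPSEp53_1 replicate 1. The 8 members below at an unadjusted p of 0.05 were 2 without LLPSEp53_1 replicate 2, 3 without LLPSEp53_2 replicate 3 and 18 without LLPSEp53_1 replicate 1, and without LLPSEp53_1 replicate 3 there were 10 above and 4 below.

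ATP5F1E, the epsilon subunit of the central stalk of ATP synthase (ENSG00000124172, GRCh38 chromosome 20, 59025467 to 59032382, minus strand), had the smallest adjusted p, at 127, 159.7 and 136 CPM in LLPSEp53_1 and 106, 104 and 96.8 in LLPSEp53_2 (log2 difference -0.46, standard error 0.13, adjusted p = 0.268). NDUFS6 stood at 61.97, 77.7 and 81.9 and 56.4, 56.3 and 40.5 CPM (log2 difference -0.53, standard error 0.16, adjusted p = 0.323). ATP5MJ, a small membrane subunit of ATP synthase, stood at 201, 252 and 237 and 197, 173 and 147 CPM (log2 difference -0.42, standard error 0.15, adjusted p = 0.473). In all 3 genes the highest LLPSEp53_2 library was below the lowest LLPSEp53_1 library, and the other such members were NDUFB1 at -0.36 and ATP5PF at -0.29. UQCRFS1, the most abundant gene of complex III by CPM, had 557, 694 and 770.02 and 617, 525 and 473 CPM (log2 difference -0.32, standard error 0.15, adjusted p = 0.684), and LLPSEp53_1 replicate 1 lay inside the LLPSEp53_2 range. COX4I1, COX5A, COX5B, COX6A1, COX6B1, COX6C and COX8A lay between -0.35 and 0.39, ATP5F1A and ATP5F1B at 0.00 and -0.07, and SDHA to SDHD between -0.14 and 0.38.

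Subunit genes outside the symbol rule were read from the same tests. CYC1, the cytochrome c1 of complex III, had log2 differences of -0.18 in WT against Ctrl, 0.29 and 0.27 in LLPSEp53_1 and LLPSEp53_2 against p53, and -0.02 between the constructs. CYCS, cytochrome c itself, was at 0.17, 0.54, 0.52 and -0.02 (smallest adjusted p = 0.183), and NDUFAB1, the acyl carrier protein of complex I, at 0.00, 0.16, -0.20 and -0.37. None was called in any comparison. The 13 mitochondrially encoded mRNAs, which encode the remaining subunits, had none called either and medians of 0.35, 0.08, 0.16 and 0.10 in the same order. In WT against Ctrl that median rested on Ctrl replicate 1, where these mRNAs summed to 4859 CPM, while replicates 2 and 3 held 12687 and 13556 CPM; leaving replicate 1 out, the median was -0.05. The nuclear members of that library did not stand apart, with a median deviation of 0.00.

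Genes that build or supply the chain were read from the same fits. Of 50 assembly factors tested none was called in any comparison, and their medians were -0.01, 0.18, 0.05 and -0.16. Smallest in adjusted p was NDUFAF8, a complex I assembly factor, at -0.80 in LLPSEp53_2 against LLPSEp53_1 (adjusted p = 0.0768). SCO2, the copper chaperone of complex IV that is known as a p53 target, held 96 counts in all 15 libraries and at most 0.94 CPM, too few for a comparison here. Among 14 TCA cycle genes none was called, and OGDH was nearest in WT against Ctrl at -0.36 (adjusted p = 0.0698), with SUCLG2 at 0.30 and DLD at 0.24; IDH2 was at 0.47 and 0.63 against p53 in LLPSEp53_1 and LLPSEp53_2. Among 14 regulators of mitochondrial gene expression none was called. PPRC1, a coactivator of NRF1, was at -0.40 in WT against Ctrl (adjusted p = 0.0791), and POLRMT, the mitochondrial RNA polymerase, at -0.33 (adjusted p = 0.136). POLG, the mitochondrial DNA polymerase, was at -0.30 (adjusted p = 0.143). Of 76 mitochondrial ribosomal protein genes, MRPS6 fell by 0.89 on the log2 scale in LLPSEp53_2 against p53 (edgeR adjusted p = 0.0225) and MRPL2 fell by 1.24 in LLPSEp53_2 against LLPSEp53_1 (adjusted p = 0.0486), and no other was called. Of 83 cytosolic ones, 2 were called higher in WT than in Ctrl and none in the comparisons of 2022. The transcription factor gene NRF1 was at -0.16, 0.30, 0.25 and -0.05 in the 4 comparisons. The 10 members with the NRF1 letters in their promoters had medians of 0.12, 0.36, 0.32 and -0.08, and the 56 tested members with a matched promoter and without these letters 0.04, 0.36, 0.25 and -0.12.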

How the data were processed

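RNA-seq counts per gene, as deposited by the authors, were read for 15 libraries of H1299 cells (5 groups of 3). Per the submitters' processing notes, Trimmomatic 0.39, STAR 2.7.10a and the build GRCh38 were used. Per the labels' protocols, libraries were made from total RNA with the NEBNext Ultra II RNA kit. The sources used here do not name the counting tool, its strand setting or its treatment of reads with several matches, so genes that overlap another gene cannot be told apart from it. Every row named a gene, and no column of other samples was present.

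Symbols, biotypes, lengths and overlaps came from GENCODE release 29 through the gene identifiers. Length is the median of a gene's protein-coding transcripts with a consensus coding sequence. The main test was edgeR 4.0.16 in R 4.3.3 on the counts: TMM scaling, filterByExpr, glmQLFit and glmQLFTest, with Benjamini-Hochberg adjustment over all genes tested and a threshold of 0.05. The 2023 data had a fit of their own with group as the term. For 2022 a single fit held all 9 libraries, and its terms were group and the batch label; p53 replicate 2 is alone in its batch, enters no difference, and leaves p53 set by 2 libraries. No pair of replicates agreed within sampling noise (chi-square per gene 7.46 or more, where 1 is noise). Total counts were 13535397 to 19228748 per library. Scripts were tested on simulated data.

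Members named are the core and catalytic subunits and the isoform pairs whatever their values, the highest and lowest per length of each complex, and, of each list, genes among the 3 with the smallest adjusted p of a comparison; others are named for their values. Some items of this rule are not reported here. The members and lists were chosen with earlier results of these data known. Other settings tried were DESeq2 1.42.0, scaling by upper quartile or by relative log expression, testing without the low-count filter, leaving out each library, a block for the replicate number, offsets for GC content or gene length, no batch term, and only the groups compared in the fit. Promoters came from RefSeq (GRCh38.p14); of 9 members with several starts the first listed was used.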

Additional observations from a re-analysis of the deposited data

How the results depend on the processing

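Under the alternatives for each comparison, 0 members were called in most settings. The share of all genes called in the same setting follows each count. In WT against Ctrl there were 2 calls with no filter on low counts (2.73%; ATP5F1D and NDUFB5), 2 with length offsets (4.53%; ATP5F1D and NDUFA5), and 0 to 5 when a library was left out: 1 without Ctrl replicate 1 (4.39%) and 5 without Ctrl replicate 2 (8.34%; ATP5F1D, ATP5PF, NDUFA5, NDUFB7 and NDUFS7). These shares are near or above those of the members. In LLPSEp53_1 against p53 there were 11 with no filter (1.51%) and 0 to 5 with a library left out (5 without LLPSEp53_1 replicate 1, 3.15%). In LLPSEp53_2 against p53 there were 12 with no filter (2.21%), 13 with only the groups compared (6.14%), and 0 to 11 with a library left out (11 without LLPSEp53_1 replicate 3, 5.17%, and 1 without LLPSEp53_1 replicate 1, 2.73%). Between LLPSEp53_2 and LLPSEp53_1 there were 0 to 3 with a library left out (3 without LLPSEp53_1 replicate 3, 1.1%). DESeq2, relative log expression and upper-quartile scaling, GC offsets and the fit with no batch term gave 0 in every comparison they were run on.

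The median log2 difference of LLPSEp53_1 against p53 moved from 0.35 to 0.11 with length offsets; the other medians moved by less than the spread between replicates (SD 0.11 for 2023, 0.20 for 2022). Medians with a library left out ran from -0.05 to 0.11 in WT against Ctrl, 0.19 to 0.46 in LLPSEp53_1 against p53, 0.13 to 0.31 in LLPSEp53_2 against p53 and -0.24 to 0.03 between the constructs. The causes were not tested. Few counts limit what can be said of COX4I2, COX6A2, COX6B2, COX8C and SCO2, and p53 rests on 2 libraries.

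Deviations of same-numbered libraries of 2023 had correlations of 0.20, 0.42 and 0.033. Those of differently numbered libraries ran from -0.40 (WT replicate 2 and Ctrl replicate 1) to 0.26 (WT replicate 3 and Ctrl replicate 1). The main fit did not take the replicate numbers as pairs. With the replicate block, 9 members were called in WT against Ctrl beside 10.2% of all genes. They were ATP5F1D, ATP5MF, ATP5PF, COX7B, NDUFA4, NDUFA5, NDUFB1, NDUFB5 and NDUFB7. With the replicate block and length offsets 10 were called beside 12.1% of all genes, with COX7C and NDUFB4 added and NDUFB1 not called. In both settings the members' share is close to that of all genes. Between the constructs of 2022, same-numbered libraries had correlations of -0.67, -0.25 and -0.68. LLPSEp53_1 replicate 3 and LLPSEp53_2 replicate 1 were at 0.63, and LLPSEp53_1 replicate 1 and LLPSEp53_2 replicate 3 at 0.62. In the comparisons of 2022 the block gave 0 calls, with a median of 0.11 in LLPSEp53_1 against p53 when joined with length offsets.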
